A study of Mus musculus with 20 samples.

Results

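The circadian clock genes described here are 10 rows of the hippocampal count table: the activator Arntl (also called Bmal1), the repressors Per1, Per2, Per3, Ciart and Bhlhe41, the nuclear receptors Nr1d1 and Nr1d2, and the clock output factors Dbp and Tef. They are 10 of 39056 genes in the table, they were selected on a measured value, since Ciart was higher in miR-34a KO Tg-SwDI than in miR-34a WT Tg-SwDI mice, and all 10 passed the filter on low counts. RNA from the left hippocampus of 20 female C57BL/6 mice was sequenced, with 5 mice and 1 library per mouse in each of 4 groups. The groups were Non-Tg miR34a+/+ (WT Non-Tg), Non-Tg miR34a-/- (KO Non-Tg), Tg-SwDI miR34a+/+ (WT Tg-SwDI) and Tg-SwDI miR34a-/- (KO Tg-SwDI), and none had a drug treatment. Tg-SwDI mice carry human APP with the Swedish, Dutch and Iowa mutations under the neuronal Thy1 promoter, and the miR-34a deletion was constitutive and in all tissues. Behavioural testing began at 12 months of age in all groups, and ketamine and xylazine anaesthesia and saline perfusion preceded dissection. The hour of dissection and the light cycle are not given in the sources used here, so each value is the level in 1 mouse at a time of day that is not known.

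The mammalian clock is a feedback loop of transcription. ARNTL pairs with CLOCK or NPAS2, binds E-box sequences and activates the Per and Cry genes and also Nr1d1, Nr1d2, Dbp, Tef, Ciart and Bhlhe41, whereas PER and CRY proteins, CIART and BHLHE41 inhibit that activity. NR1D1 and NR1D2 (REV-ERB alpha and beta) repress Arntl at ROR elements, and DBP and TEF, PAR bZIP transcription factors, bind D-boxes in output genes and in Per genes. In the hippocampus the Per genes are also induced by neuronal activity and by glucocorticoids, and many of these transcripts cycle over the day.

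Counts on genes summed to 19549622 to 21066868 per mouse, and the deposited raw counts of the 10 genes ran from 181 (Ciart) to 8529 (Tef). Mitochondrial genes took 6.94% to 8.76% of the counts in 19 mice and 14.6% in KO Tg-SwDI replicate 8, so fold changes of the 10 genes that use the KO Tg-SwDI group are also given without that mouse. Thy1, whose promoter drives the transgene, was at 685 to 769 CPM (counts scaled to the library size) in WT Non-Tg, 689 to 744 in KO Non-Tg, 1905 to 2328 in WT Tg-SwDI and 2454 to 3318 in KO Tg-SwDI mice, and the WT and KO Tg-SwDI ranges did not overlap. The hippocampal markers Zbtb20, Neurod6 and Wfs1 were expressed in every group, and the summed CPM of the 6 hippocampal markers was 915 to 993, 980.3 to 1009, 939 to 1040.1 and 872 to 1048 in the same order of groups. Mir34a has no row among the genes analysed here, so the knockout label was not checked on its target. CPM values below use TMM-scaled library sizes, fold changes and SEs are from edgeR's quasi-likelihood fit of all 20 mice, and adjusted p-values are Benjamini-Hochberg values over 16107 genes. In bulk tissue, fewer cells of a type and less RNA per cell cannot be told apart.

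Divided by annotated exon length, Tef was the most abundant of the 10 genes, with a mean over 20 mice of 48.8 CPM per kb. Nr1d1 (37.8 CPM per kb), Nr1d2 (20.6), Dbp (18.9) and Per1 (15.4) followed. Bhlhe41 was at 9.82 CPM per kb, Per2 at 6.75, Ciart at 5.89, Arntl at 4.04 and Per3 at 3.78. The output factors and REV-ERB receptors lay above Arntl and the period genes Per2 and Per3 on this scale. The ratio of the highest to the lowest mouse was 1.15 for Tef and 1.29 for Nr1d2, the steadiest of the 10, and 2.29 for Nr1d1, 2.17 for Ciart and 2.16 for Per1.

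**Figure D1:**
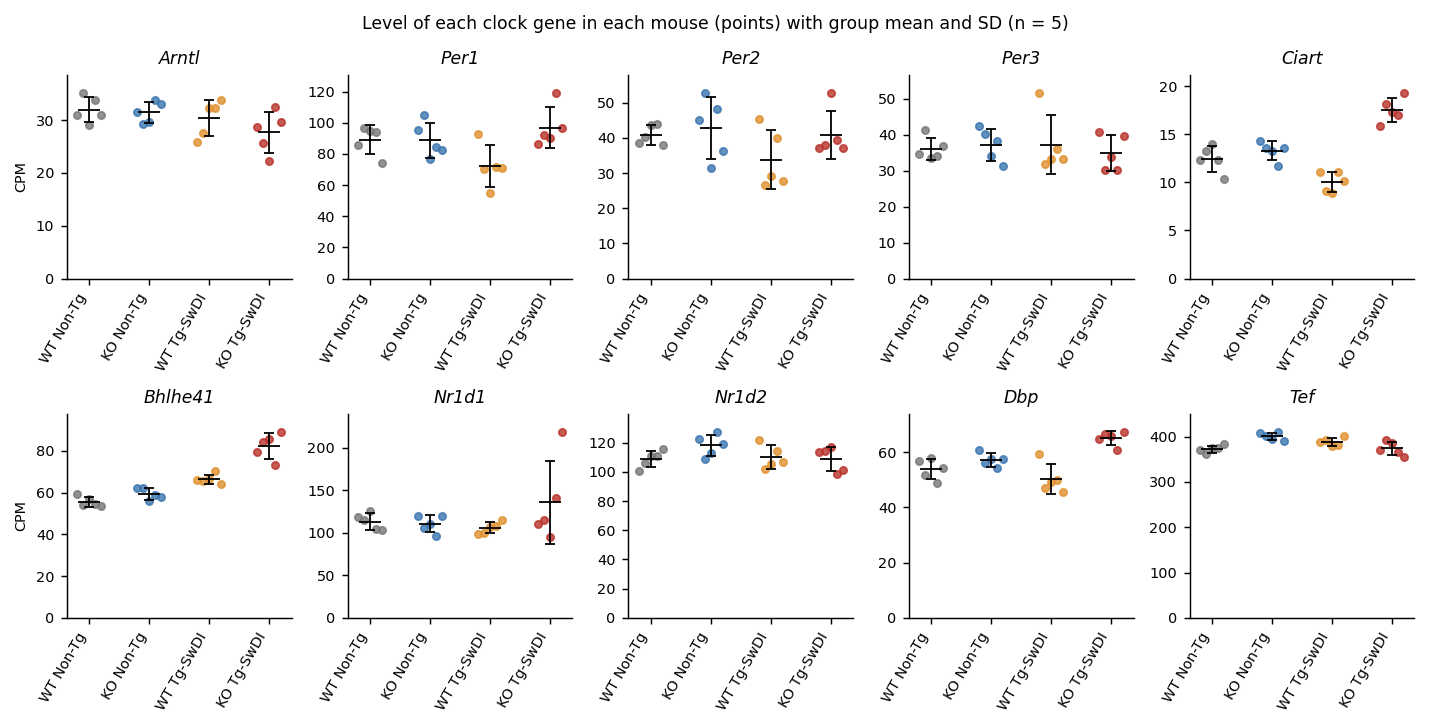
CPM (y axis, linear from 0) of each of the 10 clock genes in each mouse (points) by group (x axis), with the group mean and SD (black, n = 5). Ciart and Bhlhe41 of the 5 KO Tg-SwDI mice lie above all mice of the other groups, and Nr1d1 has 1 KO Tg-SwDI mouse at 218 CPM.

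Ciart (ENSMUSG00000038550, mm10 chr3:95878503-95882251, minus strand), a repressor that binds the CLOCK and ARNTL complex, had the lowest count of the 10 genes in each group. Its levels were 12.3, 13.2, 13.9, 12.3 and 10.4 CPM in WT Non-Tg mice and 14.3, 13.6, 13.3, 11.7 and 13.5 CPM in KO Non-Tg mice. They were 11.1, 9.13, 8.89, 11.1 and 10.1 CPM in WT Tg-SwDI mice and 15.9, 18.2, 17.3, 17.0 and 19.3 CPM in KO Tg-SwDI mice. The highest WT Tg-SwDI mouse lay below the lowest KO Tg-SwDI mouse, and all KO Tg-SwDI mice lay above all mice of the other 3 groups. Group means ± SD (n = 5 each) were ordered WT Tg-SwDI (10.1 ± 1.04), WT Non-Tg (12.4 ± 1.35), KO Non-Tg (13.3 ± 0.962) and KO Tg-SwDI (17.5 ± 1.28), and the ranges of the lower 3 neighbours overlapped. In Non-Tg mice, a comparison that shares no mouse with the one that chose the gene, Ciart differed between KO and WT by a log2 fold change of 0.10 (SE 0.085), which did not pass the test (adjusted p = 0.854). In Tg-SwDI mice the KO to WT log2 fold change was 0.80 (SE 0.086), 1.74-fold, and 0.77 without KO Tg-SwDI replicate 8. Tg-SwDI against Non-Tg gave -0.31 (SE 0.087) in WT and 0.40 (SE 0.084) in KO mice, the latter 0.36 without that mouse. These Tg-SwDI values involve the Tg-SwDI mice by which the gene was chosen and are given with no test.

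The promoter of Ciart holds 3 E-boxes, the sequence to which ARNTL and CLOCK bind. The 250 bases before the RefSeq starts (GRCm38.p6) of Ciart, Bhlhe41 and Per3 are shown because Ciart and Bhlhe41 are the 2 genes whose KO Tg-SwDI mice lay above all other mice and because Per3 is the gene with D-boxes. Each is written 5′ to 3′ in gene orientation, with the last base next to the start. Capitals mark E-boxes (CACGTG) in Ciart and Bhlhe41 and D-boxes (TTATGTAA) in Per3.
Ciart, chr3:95882229-95882478, minus strand: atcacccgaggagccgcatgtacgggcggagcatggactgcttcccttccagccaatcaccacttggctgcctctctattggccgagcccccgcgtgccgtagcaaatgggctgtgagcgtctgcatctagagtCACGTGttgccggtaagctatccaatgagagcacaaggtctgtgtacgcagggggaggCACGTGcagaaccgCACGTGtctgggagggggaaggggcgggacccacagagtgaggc
Bhlhe41, chr6:145865421-145865670, minus strand: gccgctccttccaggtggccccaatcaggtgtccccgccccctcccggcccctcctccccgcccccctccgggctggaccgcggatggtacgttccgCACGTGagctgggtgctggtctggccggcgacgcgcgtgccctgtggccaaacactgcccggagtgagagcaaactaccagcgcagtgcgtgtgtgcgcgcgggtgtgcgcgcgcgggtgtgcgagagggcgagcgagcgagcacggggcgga
Per3, chr4:151044666-151044915, minus strand: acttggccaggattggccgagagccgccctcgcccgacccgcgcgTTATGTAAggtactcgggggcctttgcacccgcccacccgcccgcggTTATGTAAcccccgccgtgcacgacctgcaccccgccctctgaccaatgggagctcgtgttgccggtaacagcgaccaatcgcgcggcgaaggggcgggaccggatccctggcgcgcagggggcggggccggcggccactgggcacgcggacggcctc
Ciart holds 3 E-boxes, whose first bases lie at -116, -58 and -44 from the start, Bhlhe41 holds 1 at -153, and Per3 holds 2 D-boxes at -205 and -158.

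Motifs were searched on both strands of windows of 250 bases before to 50 bases after the start, which RefSeq gave for 9 of the 10 genes in 12 windows (Per2 has none). A gene with 2 windows was counted if either held the motif, whereas the shares of all are per window, so these are unlike units. An E-box, CACGTG, occurred in 4 of the 9 genes (Ciart, Bhlhe41, Per1 and Tef), and in 7.15% of all 32851 windows. At least 3 E-boxes, a number chosen after the Ciart window was read, occurred in 29 of the 32851 windows (0.0883%). A D-box, TTATGTAA or TTACGTAA, occurred in Per3 alone of the 9 genes and in 1.06% of all windows, and at least 2 in 8 of them. The E-prime box CACGTT was in the Nr1d1 window, at -28, and in 4.68% of all windows. A ROR or REV-ERB element, TAGGTCA or TGGGTCA, was in 1 Arntl window, 31 bases after the start, and in 6.45% of all windows. The cAMP response element TGACGTCA was in none of the 12 windows and in 1.79% of all. No match overlapped another. The Dbp and Nr1d2 windows held none of these letters, and the 2 Tef windows held 1 E-box each.

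Bhlhe41 (also called Dec2; mm10 chr6:145858243-145865558, minus strand), a helix-loop-helix repressor of E-box genes, was higher in Tg-SwDI mice of both genotypes. Its levels were 59.3, 53.9, 56.9, 54.6 and 53.5 CPM in WT Non-Tg mice and 62.2, 62.5, 56.0, 59.0 and 57.9 CPM in KO Non-Tg mice. In Tg-SwDI mice they were 66.0, 65.4, 66.4, 70.2 and 64.3 CPM in WT and 79.3, 84.3, 85.9, 73.2 and 88.9 CPM in KO. The group means were ordered WT Non-Tg, KO Non-Tg, WT Tg-SwDI and KO Tg-SwDI, and only the 2 Non-Tg ranges overlapped. With the transgene Bhlhe41 rose by 0.26 (SE 0.052) on the log2 scale in WT mice (edgeR adjusted p = 0.00184) and by 0.47 (SE 0.051) in KO mice (edgeR adjusted p = 1.26e-07), in 5 of 5 mice each. The rise in KO mice was 0.44 without KO Tg-SwDI replicate 8 (adjusted p = 1.45e-07). The adjusted p of both comparisons stayed below 0.05 under every alternative run. KO against WT gave 0.10 (SE 0.052) in Non-Tg mice (adjusted p = 0.676), where all 5 KO mice were above the WT mean, and 0.31 (SE 0.051) in Tg-SwDI mice, or 0.28 without that mouse, given with no test.

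Markers of microglia and astrocytes were, like Bhlhe41, higher with the transgene in both genotypes. In KO mice 4 of 6 oligodendrocyte and 13 of 15 choroid plexus markers were also called higher, beside 20.8% of all genes called. In WT mice 0 of each were called, beside 4.41% of all genes. The summed level of 6 microglial markers (Csf1r, Cx3cr1 and P2ry12 the most abundant, none at 0) was 221 to 291 CPM in WT Non-Tg, 227 to 252 in KO Non-Tg, 373 to 443 in WT Tg-SwDI and 509.5 to 624 in KO Tg-SwDI mice, and 6 of 6 rose with the transgene in each genotype, where 4.41% of all genes were called in WT and 20.8% in KO mice. The sum of 7 astrocyte markers (Slc1a2, Aldoc and Gfap the most abundant, none at 0) was 4754 to 5119, 4962 to 5305, 6026 to 6898 and 6394 to 7947 CPM, with 5 of 7 higher in WT and 4 of 7 in KO mice past the test, against the same shares of all genes. The median log2 fold change of the microglial list was 0.80 in WT and 1.32 in KO mice, against 0.26 and 0.47 for Bhlhe41. Within groups, Bhlhe41 followed the microglial list with r = 0.29 and the astrocyte list with r = 0.47 over 20 mice, neither past the test (permutation p = 0.341 and 0.117). Without KO Tg-SwDI replicate 8 these were r = 0.56 (permutation p = 0.0394, adjusted p = 0.338) and r = 0.73 (permutation p = 0.00337, adjusted p = 0.167), so that both values were lower with that mouse included. The part of any of these cell types in the rise of Bhlhe41 was not tested.

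**Figure D2:**
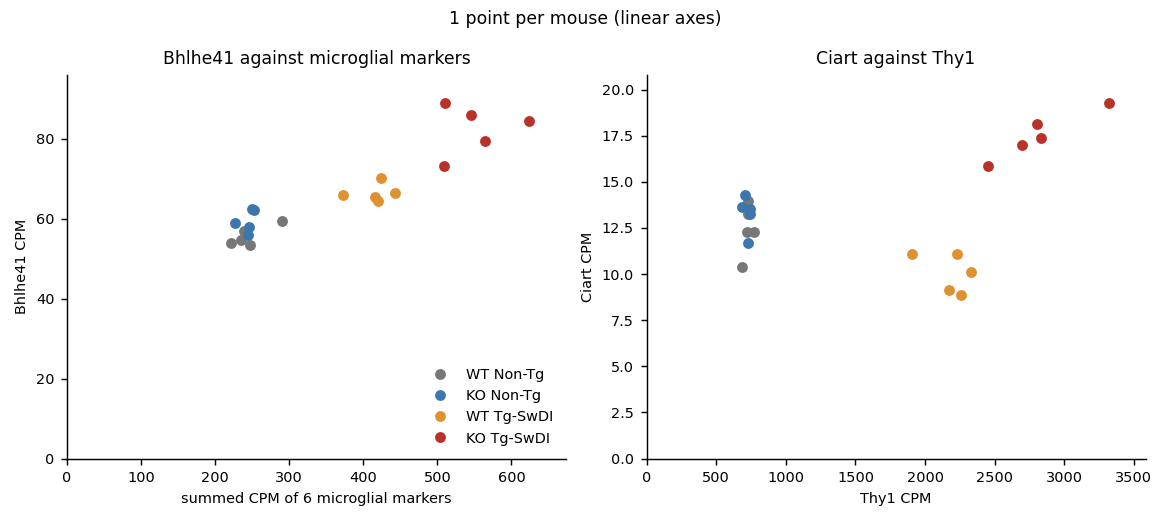
Bhlhe41 CPM against the summed CPM of 6 microglial markers (left) and Ciart CPM against Thy1 CPM (right), 1 point per mouse, coloured by group, on linear axes. Bhlhe41 and the microglial sum are both highest in the 5 KO Tg-SwDI mice. Mean Ciart is lowest in the WT Tg-SwDI group and highest in the KO Tg-SwDI group. Thy1 is raised in both of these groups, to 1905 to 2328 CPM and to 2454 to 3318 CPM, without overlap. The part of Thy1 in the Ciart levels was not tested.

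The period genes, whose proteins carry the inhibitory arm of the loop, passed no test in the comparisons tested. Per1 (mm10 chr11:69095217-69109960, plus strand) was at 85.5, 96.9, 94.4, 94.3 and 74.5 CPM in WT Non-Tg and 95.5, 105, 76.4, 84.1 and 82.7 CPM in KO Non-Tg mice. It was at 92.5, 70.6, 55.2, 71.9 and 71.0 CPM in WT Tg-SwDI and 86.3, 92.3, 90.2, 119 and 96.6 CPM in KO Tg-SwDI mice. WT Tg-SwDI mice were the lowest group, with 4 of 5 mice below every other mouse, and the fifth, replicate 3, was within the range of the rest. Tg-SwDI against Non-Tg gave -0.30 (SE 0.12) in WT mice (edgeR adjusted p = 0.209) and -0.41 without WT Tg-SwDI replicate 3 (adjusted p = 0.0360), which passed. In KO mice it gave 0.13 (SE 0.12, adjusted p = 0.494), and KO against WT gave -0.0058 (SE 0.12) in Non-Tg mice (adjusted p = 0.997). In Tg-SwDI mice the KO to WT log2 fold change of Per1 was 0.42 (SE 0.12), with no test. Without KO Tg-SwDI replicate 8 the transgene gave 0.13 in KO mice and this value was 0.43.

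Per2 (mm10 chr1:91415982-91459324, minus strand) was at 38.5, 40.2, 43.7, 43.9 and 37.9 CPM in WT Non-Tg and 45.1, 52.7, 31.5, 48.3 and 36.2 CPM in KO Non-Tg mice. In Tg-SwDI mice Per2 was at 45.4, 26.5, 29.2, 40.1 and 27.8 CPM in WT and 37.2, 37.9, 52.7, 39.3 and 37.1 CPM in KO. All 4 ranges overlapped, and its SDs of 8.73 CPM in KO Non-Tg and 8.43 in WT Tg-SwDI were the larger ones, against 2.82 in WT Non-Tg. The log2 fold changes of Per2 were 0.067 (SE 0.16) for KO against WT in Non-Tg mice (adjusted p = 0.971), -0.27 (SE 0.16) for the transgene in WT mice (adjusted p = 0.461) and -0.066 (SE 0.16) for it in KO mice (adjusted p = 0.809). Per3 (mm10 chr4:151003652-151044665, minus strand) ranged over 33.4 to 41.2 CPM in WT Non-Tg, 31.3 to 42.3 in KO Non-Tg, 31.8 to 51.5 in WT Tg-SwDI and 30.2 to 40.7 in KO Tg-SwDI mice. Its highest value was that of WT Tg-SwDI replicate 3, the mouse with the highest Per1, Per2 and Dbp of its group. Per3 gave log2 fold changes of 0.047 (SE 0.12), 0.047 (SE 0.12) and -0.091 (SE 0.12) in the same 3 comparisons (adjusted p = 0.973, 0.915 and 0.649). KO against WT in Tg-SwDI mice was 0.27 (SE 0.16) for Per2 and -0.091 (SE 0.12) for Per3, with no test. The value of Per3 changed sign, to 0.057, without WT Tg-SwDI replicate 3, and that of Per2 was 0.16 without KO Tg-SwDI replicate 3. Without KO Tg-SwDI replicate 8 the transgene gave -0.032 for Per2 and -0.14 for Per3 in KO mice, and KO against WT in Tg-SwDI mice was 0.31 and -0.14. Per3 lies over its whole length inside the annotated Camta1 gene on the same strand, so reads from unspliced Camta1 RNA could not be separated from it.

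Arntl (ENSMUSG00000055116, mm10 chr7:113207465-113314126, plus strand), the activator of the loop, was at 31.0, 35.1, 29.1, 33.7 and 30.9 CPM in WT Non-Tg and 31.5, 29.3, 29.7, 33.8 and 33.0 CPM in KO Non-Tg mice. It was at 25.9, 27.6, 32.3, 32.3 and 33.7 CPM in WT Tg-SwDI and 28.6, 25.6, 22.2, 32.4 and 29.6 CPM in KO Tg-SwDI mice. The KO Tg-SwDI mean of 27.7 ± 3.91 CPM was the lowest of the groups, and neighbouring groups differed by less than their SD. The log2 fold changes were -0.023 (SE 0.085) for KO against WT in Non-Tg mice (adjusted p = 0.979), -0.076 (SE 0.085) for the transgene in WT mice (adjusted p = 0.756) and -0.19 (SE 0.086) for it in KO mice (adjusted p = 0.130). It was -0.13 (SE 0.086) for KO against WT in Tg-SwDI mice, with no test, and -0.063 without KO Tg-SwDI replicate 3. The last 2 comparisons gave -0.21 and -0.16 without KO Tg-SwDI replicate 8.

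The REV-ERB genes, which repress Arntl, did not pass any test. Nr1d1 (mm10 chr11:98767932-98775333, minus strand) was at 119, 114, 125, 104 and 103 CPM in WT Non-Tg and 120.0, 106, 110.1, 95.9 and 119.9 CPM in KO Non-Tg mice. In Tg-SwDI mice it was at 98.8, 99.95, 107, 108 and 114 CPM in WT and 111, 115, 95.0, 141 and 218 CPM in KO. A single mouse, KO Tg-SwDI replicate 8, stood above all others, and it is the mouse with the high mitochondrial share. The transgene gave Nr1d1 log2 fold changes of -0.10 (SE 0.16) in WT (adjusted p = 0.848) and 0.30 (SE 0.16) in KO mice (adjusted p = 0.209), the latter 0.067 without that mouse. KO against WT was -0.035 (SE 0.16) in Non-Tg mice (adjusted p = 0.982) and, with no test, 0.36 (SE 0.16) in Tg-SwDI mice, 0.13 without replicate 8. Nr1d1 shares 1075 bases with the opposite-strand gene Thra, and since the strand setting of the counting is not given in the sources used here, reads of that stretch could not be assigned with certainty. Thra was at 796, 867, 772, 899.7 and 929.6 CPM in the 5 KO Tg-SwDI mice, highest in the same replicates 5 and 8.

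Nr1d2 (mm10 chr14:18204054-18239127, minus strand) ranged over 101 to 116 CPM in WT Non-Tg, 109 to 127 in KO Non-Tg, 102 to 122 in WT Tg-SwDI and 98.9 to 117 in KO Tg-SwDI mice, and all ranges overlapped. The log2 fold changes of Nr1d2 were 0.12 (SE 0.059) for KO against WT in Non-Tg mice (adjusted p = 0.629), 0.018 (SE 0.059) for the transgene in WT mice (adjusted p = 0.932) and -0.11 (SE 0.059) for it in KO mice (adjusted p = 0.175). Its value for KO against WT in Tg-SwDI mice, with no test, was -0.014 (SE 0.059), and its sign turned without KO Tg-SwDI replicate 8 (0.012), with the GC and length trend removed (0.046) and in some other runs that left out 1 mouse, over which it ran from -0.042 to 0.025. The transgene in KO mice gave -0.088 without KO Tg-SwDI replicate 8.

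Dbp (mm10 chr7:45705088-45710203, plus strand), the D-box activator whose transcript is a standard readout of ARNTL activity, was at 56.7, 51.6, 58.0, 49.0 and 54.1 CPM in WT Non-Tg and 60.8, 55.9, 57.5, 54.2 and 57.5 CPM in KO Non-Tg mice. It was at 59.3, 46.9, 49.1, 49.96 and 45.6 CPM in WT Tg-SwDI and 64.7, 66.4, 65.8, 60.7 and 67.1 CPM in KO Tg-SwDI mice. KO Tg-SwDI mice lay above all WT Tg-SwDI mice and overlapped KO Non-Tg mice by 1 animal of each group. In KO mice Dbp rose with the transgene by 0.18 (SE 0.061, edgeR adjusted p = 0.0338; 5 of 5 mice above the KO Non-Tg mean). That call was lost with library size alone (adjusted p = 0.116), with the choroid plexus score as a covariate (0.356), with the GC and length trend removed (0.267) and without any 1 of KO Non-Tg replicates 2, 4, 7 and 8 or KO Tg-SwDI replicate 3 (0.0581 to 0.0884). Without KO Tg-SwDI replicate 8 the value was 0.17 (adjusted p = 0.0489). The summed level of 15 choroid plexus markers (Ttr, Kl and Clic6 the most abundant, none at 0) was 66.9 to 4521 CPM in WT Non-Tg, 69.2 to 368 in KO Non-Tg, 128 to 3922 in WT Tg-SwDI and 135 to 4059.6 in KO Tg-SwDI mice. Its part in the rise of Dbp was not tested beyond the covariate. For KO against WT in Non-Tg mice 15 of 15 markers were lower (median log2 fold change -3.04), and 0 were called, as were 0% of all genes. The part of that difference in the values of this comparison was not tested beyond the covariate. In WT mice the transgene gave Dbp -0.10 (SE 0.062, adjusted p = 0.471), and KO against WT gave it 0.086 (SE 0.061) in Non-Tg mice (adjusted p = 0.781) and, with no test, 0.37 (SE 0.061) in Tg-SwDI mice, 0.36 without replicate 8. Dbp shares 737 bases with Sphk2 on the opposite strand, which had at most 754 counts in a mouse.

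Tef (mm10 chr15:81802421-81826863, plus strand), of the same PAR bZIP family, varied least among the 10 genes. It was at 369.7, 361, 374, 374 and 383 CPM in WT Non-Tg and 407, 401, 395, 409 and 391 CPM in KO Non-Tg mice. It was at 388, 392, 380.0, 382 and 401 CPM in WT Tg-SwDI and 371, 392, 386, 365 and 356 CPM in KO Tg-SwDI mice. All KO Non-Tg mice lay above all WT Non-Tg mice, with a log2 fold change of 0.11 (SE 0.039) that did not pass after adjustment (adjusted p = 0.529). In Non-Tg mice 2.23% of all genes tested had no overlap between KO and WT, and of the 10 clock genes Tef was the one. The choroid plexus markers were all lower in KO than in WT Non-Tg mice, and their part in the Tef difference was not tested beyond the covariate. The transgene gave Tef 0.062 (SE 0.039) in WT (adjusted p = 0.498) and -0.10 (SE 0.039) in KO mice (adjusted p = 0.0700), and the latter passed with DESeq2 (adjusted p = 0.00475) and with library size alone (0.0365). KO against WT in Tg-SwDI mice was -0.055 (SE 0.039), with no test, and -0.10 with library size alone. Without KO Tg-SwDI replicate 8 the transgene gave -0.08 in KO mice and KO against WT -0.037 in Tg-SwDI mice.

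KO against WT in Non-Tg mice called 0 of 10 clock genes at an FDR of 0.05 and 0% of the 16107 genes tested, while 1302 genes and 1 clock gene, Tef, had an unadjusted p under 0.05. DESeq2 called 7 genes and edgeR's exactTest 4 in that comparison, and neither called a clock gene. With the transgene in WT mice 1 of the 9 clock genes other than Ciart was called, Bhlhe41, against 4.41% of all genes, and 1 of the 9 had no overlap between groups, against 6.69%. With the transgene in KO mice 2 of the 9 were called, Bhlhe41 and Dbp, against 20.8% of all genes, and 1 of the 9, Bhlhe41, had no overlap, against 12.8%. Both shares were near the background in KO mice. In the comparison that chose the genes, KO against WT in Tg-SwDI mice, 1.99% of all genes passed the FDR, and the 10 clock genes are given with no test. There 3 of 10 (Ciart, Dbp and Bhlhe41, all higher) had no overlap, where 3.16% of all genes had none. Nothing is read from that count, since the set was chosen there. Over all genes the share of calls that were higher was 74.7% in this comparison and 60.1% with the transgene in KO mice, and 47.0% and 48.3% with library size alone in place of TMM. The median log2 fold change over the 9 clock genes other than Ciart was 0.067 for KO against WT in Non-Tg mice, -0.076 for the transgene in WT mice and -0.066 for it in KO mice, beside -0.0021, 3.2e-05 and -0.0048 over all genes. The 2 transgene comparisons use the Tg-SwDI mice of the comparison that chose the set, and each shares its Non-Tg mice with the Non-Tg comparison.

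**Figure D3:**
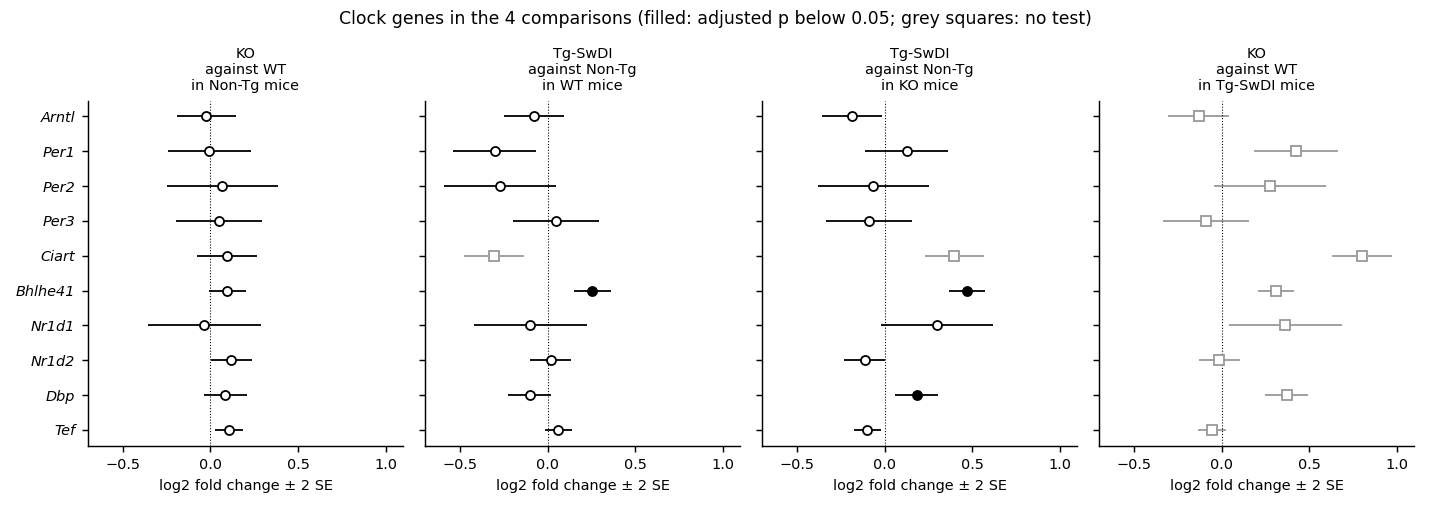
Log2 fold change (x axis) with 2 SE on each side for the 10 clock genes (y axis) in the 4 comparisons, with filled circles for an adjusted p below 0.05, open circles for values that missed it and grey squares for values given with no test. Bhlhe41 is filled in both transgene comparisons (0.26 in WT and 0.47 in KO mice), and Dbp in KO mice alone.

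Ciart differed between Tg-SwDI and Non-Tg mice in opposite directions in the 2 genotypes. All 5 WT Tg-SwDI mice lay below the WT Non-Tg mean and all 5 KO Tg-SwDI mice above the KO Non-Tg mean, and the difference between the 2 log2 fold changes was 0.70 (SE 0.12). That difference contains the comparison that chose Ciart and was not tested. For Per1 it was 0.43 (SE 0.17), for Nr1d1 0.40 (SE 0.23) and 0.17 without KO Tg-SwDI replicate 8, for Dbp 0.29 (SE 0.087) and 0.16 with the GC and length trend removed, for Bhlhe41 0.21 (SE 0.073) and for Per2 0.21 (SE 0.22). It was negative for Tef, at -0.16 (SE 0.055), Per3, at -0.14 (SE 0.17), Nr1d2, at -0.13 (SE 0.084) and Arntl, at -0.11 (SE 0.12). Without KO Tg-SwDI replicate 8 the difference was 0.67 for Ciart, 0.43 for Per1, 0.28 for Dbp, 0.19 for Bhlhe41 and 0.24 for Per2. Without that mouse it was -0.14 for Tef, -0.18 for Per3, -0.10 for Nr1d2 and -0.13 for Arntl. With the GC and length trend removed the difference was -0.038 for Nr1d2 and -0.06 for Arntl. With 1 mouse left out it ran from 0.10 to 0.34 for Per2, lowest without KO Tg-SwDI replicate 3, from -0.17 to -0.04 for Arntl, highest without the same mouse, and from -0.20 to 0.0084 for Per3, whose sign turned without WT Tg-SwDI replicate 3.

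Of 24 further genes of the clock, all passed the filter on low counts, none was called for KO against WT in Non-Tg mice, and Cry2 was the 1 gene called with the transgene in both genotypes. Cry2, a cryptochrome that represses CLOCK and ARNTL, was at 117 to 131 CPM in WT Non-Tg, 122 to 132 in KO Non-Tg, 95.4 to 111 in WT Tg-SwDI and 98.5 to 122 in KO Tg-SwDI mice. It fell by 0.25 (SE 0.057) on the log2 scale in WT mice (edgeR adjusted p = 0.00560) and by 0.23 (SE 0.057) in KO mice (adjusted p = 0.00591), in 5 of 5 mice each, and the second call was lost with the choroid plexus covariate (0.165). In KO mice 2 more fell. Btrc, a ubiquitin ligase subunit that acts on PER proteins, fell by 0.21 (SE 0.051, adjusted p = 0.00403). Clock, the partner of ARNTL, fell by 0.15 (SE 0.054, adjusted p = 0.0498), a call lost in 6 of 10 other settings and in 15 of 20 runs that left out 1 mouse. The call of Btrc was lost with the choroid plexus covariate (adjusted p = 0.102) and with the GC and length trend removed. The calls of Cry2, Btrc and Clock in KO mice held without KO Tg-SwDI replicate 8. None of the 24 was called higher in any of these 3 comparisons. The 1 of 24 called in WT mice and the 3 of 24 in KO mice were not above the shares of all genes called, 4.41% and 20.8%.

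Cry1, the other cryptochrome, was at a mean of 16.5 ± 2.37, 16.8 ± 1.16, 14.7 ± 2.10 and 16.2 ± 4.76 CPM in WT Non-Tg, KO Non-Tg, WT Tg-SwDI and KO Tg-SwDI mice (SD, n = 5 each). Its transgene log2 fold changes were -0.16 in WT and -0.048 in KO mice (adjusted p = 0.699 and 0.862). Bhlhe40, the paralogue of Bhlhe41, gave -0.16 and -0.029 in these comparisons (adjusted p = 0.506 and 0.872). Hlf, the third PAR bZIP factor, gave -0.11 and -0.12 (adjusted p = 0.544 and 0.257). Npas2, which can take the place of CLOCK, gave -0.14 and -0.043 (adjusted p = 0.619 and 0.823). With the transgene in KO mice 0 of the 24 passed higher and 3 lower, and in WT mice 0 higher and 1 lower, against 20.8% and 4.41% of all genes called in either direction. The median of the 24 was -0.046 in KO and -0.057 in WT mice.

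**Figure D4:**
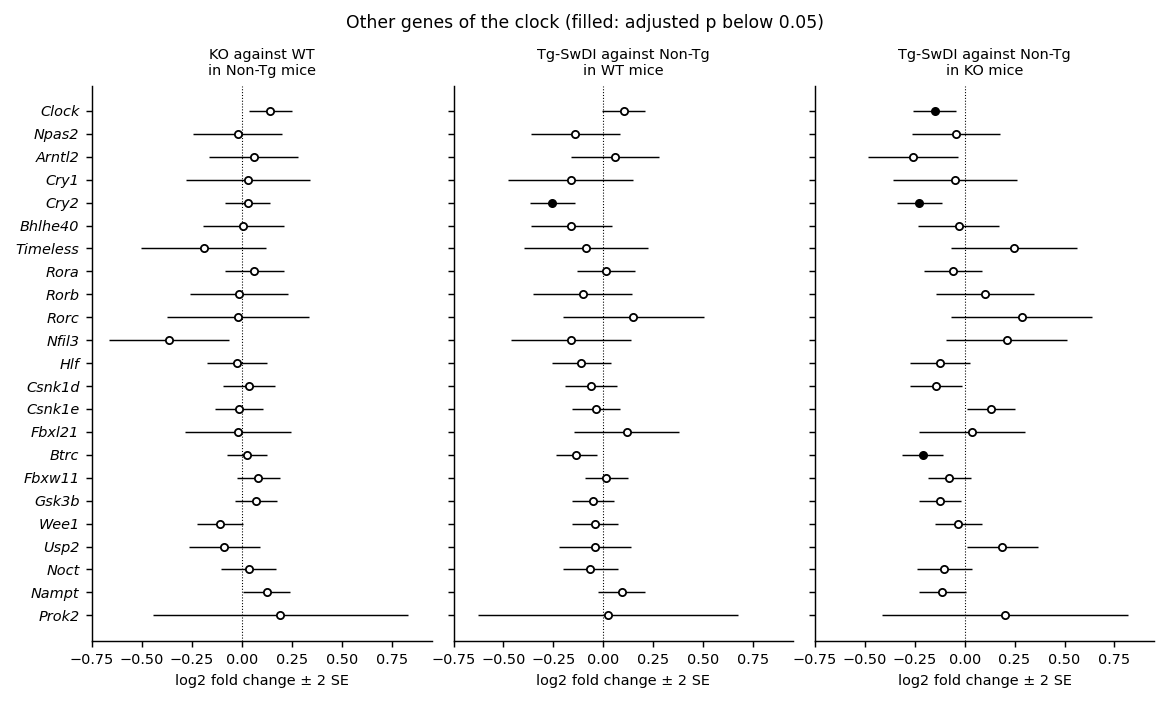
Log2 fold change (x axis) with 2 SE on each side for 23 of the 24 other clock genes (y axis) in the 3 comparisons that were tested, filled where the adjusted p is below 0.05. Avp, under 4 CPM in every mouse, is left out, while Prok2, at most 0.661 CPM, is shown. Avp was at 0.450 to 3.01 CPM in WT Non-Tg and 0.192 to 0.290 CPM in KO Non-Tg mice, and was not called. These ranges did not overlap, as in 2 of the 24 genes and 2.23% of all genes. Cry2 is filled to the left of 0 in both transgene comparisons, and Clock and Btrc in KO mice alone.

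Whether the genes varied together from mouse to mouse was examined after each group's mean was subtracted, in all 45 pairs over 20 mice. None passed after Benjamini-Hochberg adjustment over the 45 pairs (lowest adjusted p = 0.231 for r and 0.216 for rho), 9 pairs had an unadjusted permutation p under 0.05, and 28 of the 45 coefficients were positive. Arntl and Dbp deviated in opposite directions, with r = -0.57 (permutation p = 0.00927, adjusted p = 0.231) and rho = -0.56 (permutation p = 0.0176, adjusted p = 0.216) and the same sign in 4 of 4 groups. Per1 and Ciart deviated together, with r = 0.59 (permutation p = 0.0116, adjusted p = 0.231) and rho = 0.64 (permutation p = 0.00512, adjusted p = 0.216), also with the same sign in 4 of 4 groups. The 2 REV-ERB genes deviated in opposite directions, with r = -0.53 (permutation p = 0.0289, adjusted p = 0.231) and rho = -0.55 (permutation p = 0.0275, adjusted p = 0.216). Leaving out the 2 mice farthest from the median of the first gene gave r = -0.49 for Arntl and Dbp, 0.46 for Per1 and Ciart and -0.44 for Nr1d1 and Nr1d2. Per1 with Per2 gave r = 0.55 (permutation p = 0.0371, adjusted p = 0.231), and Per2 with Per3 gave r = 0.53 (permutation p = 0.0469, adjusted p = 0.231). The coefficient of largest size, r = -0.63 for Nr1d1 with Tef (permutation p = 0.0343, adjusted p = 0.231), was -0.43 without KO Tg-SwDI replicate 8.

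**Figure D5:**
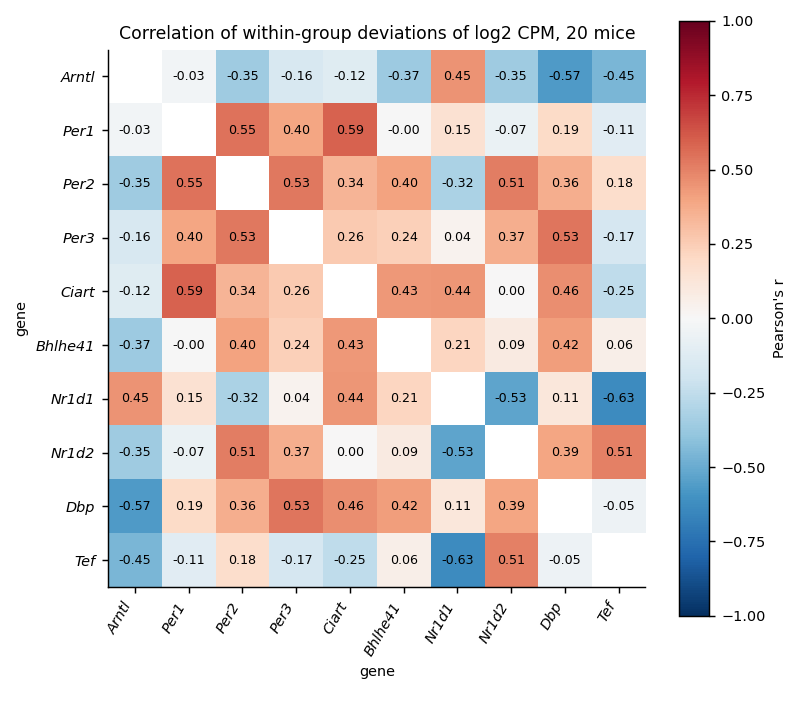
Pearson's r between each pair of the 10 clock genes (both axes), computed over 20 mice from log2 CPM after subtraction of each group's mean and coloured from -1 (blue) to 1 (red). The strongest negative value is -0.63 for Nr1d1 with Tef and the strongest positive value is 0.59 for Per1 with Ciart, and no pair passed after adjustment.

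Among 14409 genes with a mean of at least 1 CPM, the genes whose within-group deviations were most like those of Ciart over the 20 mice were Zcchc2 (0.76), Skp2 (0.75), Hlf (0.75), Zmynd11 (0.74) and Kat6a (0.74), with Pearson's r in parentheses and no test. Hlf is the clock gene among them, and Bhlhe40 came next after a few others, at r = 0.72 and rank 9. The lowest values were those of Rpl35a (-0.88), Tomm7 (-0.79), Atp5j2 (-0.79), 1500009C09Rik (-0.78) and AI987944 (-0.78), led by a ribosomal protein gene and genes of the mitochondrial import and ATP synthase complexes. For Dbp the most like were Bcat2 (0.86), Plcd1 (0.74), Adcy4 (0.74), Cc2d1b (0.73) and Nfatc3 (0.72), and the lowest were Acsl3 (-0.81), Vti1a (-0.77), Pak3 (-0.73), Gm15728 (-0.71) and Hist3h2ba (-0.71). Bcat2, a branched-chain aminotransferase gene, lies 115 kb before Dbp on chromosome 7. No other gene of the 10 was within the 5 most like Ciart or Dbp, and the deviations of any 2 genes share each mouse's library, its depth and its base composition.

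The 10 genes were also set against 6 other measures of each mouse, in 60 pairs, and none passed after adjustment (5 had an unadjusted permutation p under 0.05). Per1 followed the mean of 11 immediate early genes (Egr1, Arc and Junb the most abundant), which neurons induce when active, with r = 0.62 (permutation p = 0.00807, adjusted p = 0.318) and rho = 0.61 (permutation p = 0.00945, adjusted p = 0.307), and with r = 0.49 without the 2 mice farthest from the median of that measure. Per2 gave r = 0.54 against the same list (permutation p = 0.0159, adjusted p = 0.318). The summed CPM of the list was 381 to 843 in WT Non-Tg, 335 to 650.4 in KO Non-Tg, 284 to 596 in WT Tg-SwDI and 368 to 760.0 in KO Tg-SwDI mice. All 11 were lower for KO against WT in Non-Tg mice (median log2 fold change -0.29) and for the transgene in WT mice (-0.67). With the transgene in KO mice 10 of 11 were higher (0.13), and all 11 were for KO against WT in Tg-SwDI mice (0.50). In these comparisons 0 of 11 were called, beside 0%, 4.41%, 20.8% and 1.99% of all genes in the same order. WT Tg-SwDI mice had the lowest median of the summed list, as of Per1 and Per2, and the part of the list in their levels was not tested. Per1 ran against the microglial list with r = -0.56 (permutation p = 0.0130, adjusted p = 0.318). Nr1d1 gave r = 0.81 with the mitochondrial percent (permutation p = 0.0570, adjusted p = 0.428) and r = 0.13 without KO Tg-SwDI replicate 8, so that the value rests on that mouse. Per3 and Per1 gave r = 0.091 and -0.13 with the mitochondrial percent. Without that mouse these were -0.64 (permutation p = 0.0101, adjusted p = 0.167) and -0.54 (permutation p = 0.0362, adjusted p = 0.338). The sum of 10 glucocorticoid-responsive genes (Sgk1, Tsc22d3 and Fkbp5 the most abundant) was 298 to 384, 304 to 504, 321 to 498 and 361 to 514 CPM in the 4 groups, and the group ranges overlapped. With the transgene in WT mice 9 of the 10 were higher and 1 lower, and 2 were called, both higher, beside 4.41% of all genes. In KO mice 6 were higher and 4 lower, and 1 was called, higher, beside 20.8%. For KO against WT 0 were called in Non-Tg and in Tg-SwDI mice, beside 0% and 1.99%.

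Per3 lies on the chromosome of the deleted gene, 0.935 Mb from Mir34a (mm10 chr4:150068454-150068555). Of 60 tested genes within 2 Mb of either, 0 were called for KO against WT in Non-Tg mice and 5 had an unadjusted p under 0.05 (edgeR, lowest adjusted p = 0.529), against 1302 of all 16107 genes, and Per3 gave 0.047 (SE 0.12). The 5 of 60 were near the share over all genes, so nothing is read from their direction or position. The 3 of lowest p were named after their values were seen and are given as values alone. H6pd (mm10 chr4:149979475-150009023) gave -0.25 (SE 0.093, adjusted p = 0.529) and Slc2a5 (chr4:150119283-150144169) -0.27 (SE 0.10, adjusted p = 0.536). Gpr157 (chr4:150087365-150105927), at a mean of only 3.38 CPM, gave -0.50 (SE 0.19, adjusted p = 0.540). The 4 most abundant of the 60 were Clstn1 (-0.027 on the log2 scale), Kif1b (0.09), Kcnab2 (0.0025) and Eno1 (-0.034).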

How the data were processed

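RNA of 20 hippocampi was sequenced as stranded mRNA on a DNBSEQ instrument. The authors aligned reads to mm10 with STAR, used featureCounts to assign them to ENSEMBL genes and deposited the raw, unnormalized read counts. The counts were checked to hold no negative value and no repeated gene identifier. Versions, strand setting and treatment of multiply mapped reads are not given in the sources used here. Groups follow the genotype label of each sample. The edgeR p-values set each difference between groups against the spread between mice within groups, estimated over all 4 groups. Symbols came from GENCODE M21. Counts were tested with edgeR 4.0.16 (limma 3.58.1, R 4.3.3; DESeq2 1.42.0 as an alternative): TMM factors, filterByExpr by group (minimum count 10, total 15), 1 robust quasi-likelihood model of 4 group means with 16 residual degrees of freedom, and Benjamini-Hochberg adjustment at an FDR of 0.05. Correlations used log2 CPM (prior count 2) minus the group mean and 100000 two-sided permutations of mice within groups (numpy 2.4.6). The tests were run on simulated data first. A gene of the wider clock list and a microglial marker are not reported here and were left out of their lists. The 10 genes and all gene lists were chosen with earlier results of these data known. Text names all 10 genes, the called genes of the wider list with 6 fixed ones, the 3 most abundant markers of a list, and the 5 most and least similar genes. Alternatives were DESeq2, exactTest, RLE factors, library size alone, no or a stricter filter (mean of 1 CPM), the compared groups alone, a replicate block, a choroid plexus covariate, GC and length correction and each mouse left out. Against the other measures, pairs were chosen after seeing the data.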

Additional observations from a re-analysis of the deposited data

Results flagged for a closer look

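Of 40 groups of 5 mice (10 genes in 4 groups), 2 held a mouse whose gap to its nearest neighbour was over 0.71 of the group's range, a size that chance gives in about 1 of 20 groups. Per2 was at 52.7 CPM in KO Tg-SwDI replicate 3, against 37.1 to 39.3 CPM in the other 4 mice, and the same mouse had the lowest Arntl of all 20 (22.2 CPM). Per3 was at 51.5 CPM in WT Tg-SwDI replicate 3, against 31.8 to 35.9 CPM in the other 4.

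In 2 genes every Tg-SwDI mouse of one genotype lay on one side of its Non-Tg mean and every Tg-SwDI mouse of the other genotype on the opposite side. Ciart was below it in WT and above it in KO mice, with a difference of 0.70 between the log2 fold changes. Tef was above it in WT and below it in KO mice, with a difference of -0.16. Neither difference was tested.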

How the results depend on the processing

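Bhlhe41 kept its direction and its call with the transgene in both genotypes under all 30 alternatives (adjusted p from 1.68e-04 to 0.00902 in WT mice), and no clock gene was called for KO against WT in Non-Tg mice under any. All genes called in that comparison numbered 7 with DESeq2, 4 with exactTest, 1 with no filter, 1 with the compared groups alone and 0 to 3 with 1 mouse left out. With the transgene in WT mice 1 to 2 clock genes other than Ciart were called with 1 mouse left out, the second being Per1 without WT Tg-SwDI replicate 3. With the transgene in KO mice 1 was called under the replicate block, the choroid plexus covariate and the GC and length trend removed, and 1 to 2 with 1 mouse left out, and the covariate left 1260 genes in place of 3351. KO against WT in Tg-SwDI mice called 320 genes. It called 733 with DESeq2, 565 with exactTest, 565 with the covariate and 186 with the trend removed. It called 58 with the compared groups alone and 8 under the replicate block. With 1 mouse left out it called 78 (without WT Tg-SwDI replicate 7) to 701 (without KO Tg-SwDI replicate 2). The cause of these differences was not tested. Replicate numbers did not pair the mice (r of same-numbered mice from -0.40 to 0.15 in 16 pairs, 2 above 0.1), and under the block Dbp lost its call in KO mice (adjusted p = 0.102) and no clock gene gained one. Log2 fold changes near 0 changed sign: for KO against WT in Non-Tg mice Per1 was 0.056 under the block and 0.0199 with the trend removed, and Nr1d1 0.00842 with the covariate and 0.00917 with the trend removed. Nr1d2 with the transgene in WT mice was -0.0164 with the trend removed. With 1 mouse left out the ranges that crossed 0 were -0.0541 to 0.0137 for Arntl, -0.0724 to 0.0433 for Per1, -0.0190 to 0.16 for Per2, -0.00230 to 0.10 for Per3 and -0.0670 to 0.0113 for Nr1d1 for KO against WT in Non-Tg mice, -0.10 to 0.10 for Per3 and -0.0204 to 0.0435 for Nr1d2 with the transgene in WT mice, and -0.18 to 0.0211 for Per2 in KO mice. Of the 45 correlations 11 passed when values were centred on all 20 mice in place of groups, which leaves the group differences in, and 0 with 1 mouse left out. The ROR or REV-ERB element was found in 0 of the 9 clock genes with a window when the 50 bases after the start were left out, and in 5.38% of all windows. GC content came from transcripts, chosen after seeing the data, since no genome sequence was used. The 5 mice per group limit the precision of Per1, Per2 and Nr1d1.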
